A study of Mus musculus with 22 samples.

Results

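Arginase, nitric oxide, itaconate and tryptophan enzymes were followed together with a pair of secreted alternative activation proteins in mouse pancreatic tumours. The genes were taken by name: Arg1, Arg2, Nos2, Acod1, Ido1, Chil3 and Retnla, 7 of the 17966 genes in the table, all of them present. No measured value was used to choose them by the rule itself. The question was how their transcripts stood in tumours treated with beta-glucan, with an antibody to CD40 or with both, 10 days after treatment, against untreated tumours.

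PDA.7940B, the polyclonal cell line implanted orthotopically to give the 22 tumours in wild-type mice, comes from a KPC tumour, a genetic mouse model of pancreatic ductal adenocarcinoma. The beta-glucan group (n = 6) received 1.2 mg intravenously once. The anti-CD40 group (n = 6) received 0.1 mg of FGK45, an agonistic antibody, intraperitoneally once. The combination group (n = 5) received both agents, and the labels give no doses for it. The untreated group (n = 5) received neither, and the labels give no day of sampling for it. RNA came from sections of fixed, paraffin-embedded whole tumours, so each value mixes tumour cells, stroma, immune cells and adjoining pancreas. In such bulk RNA, a change in the number of cells of a type and a change in RNA per cell cannot be told apart.

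Arginase 1 and inducible nitric oxide synthase draw on the same substrate: the enzyme encoded by Arg1 splits arginine into ornithine and urea, and the enzyme encoded by Nos2 turns it into citrulline and nitric oxide. In mouse macrophages Nos2 is a textbook product of classical activation by interferon-gamma and microbial ligands, and Arg1, Chil3 and Retnla are textbook products of alternative activation by IL-4 and IL-13. Arg1 is also a frequent product of myeloid cells in tumours and of hepatocytes. Acod1 encodes the mitochondrial enzyme that makes itaconate from cis-aconitate, an intermediate of the tricarboxylic acid cycle, and is induced by inflammatory stimuli. Ido1 encodes the interferon-inducible enzyme that opens the kynurenine pathway of tryptophan breakdown.

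Promoter sequences from RefSeq (GRCm38.p6, 250 bases before to 50 after the annotated start) were found for 3 of the 7 genes. They are shown because Acod1 and Chil3 rose in each treated group, because Retnla did not, and because Chil4 is a close relative of Chil3 with a different pattern. The stretches are Acod1 at chr14:103046762-103047061 on the plus strand, Chil3 at chr3:106167515-106167814 on the minus strand, Retnla at chr16:48842359-48842658 on the plus strand and Chil4 at chr3:106219430-106219729 on the minus strand. Capitals mark letters that match a searched motif on either strand.
Acod1: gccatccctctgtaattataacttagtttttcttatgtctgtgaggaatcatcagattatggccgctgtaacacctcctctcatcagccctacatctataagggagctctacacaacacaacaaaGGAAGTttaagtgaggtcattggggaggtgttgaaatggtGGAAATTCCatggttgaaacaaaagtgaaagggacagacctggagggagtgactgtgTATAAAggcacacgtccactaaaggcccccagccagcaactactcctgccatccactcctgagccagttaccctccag
Chil3: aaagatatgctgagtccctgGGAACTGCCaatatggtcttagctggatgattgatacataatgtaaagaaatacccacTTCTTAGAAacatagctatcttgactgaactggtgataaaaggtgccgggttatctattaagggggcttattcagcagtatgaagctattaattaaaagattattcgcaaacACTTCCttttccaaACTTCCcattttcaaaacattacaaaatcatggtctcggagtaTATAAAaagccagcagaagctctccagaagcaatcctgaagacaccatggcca
Retnla: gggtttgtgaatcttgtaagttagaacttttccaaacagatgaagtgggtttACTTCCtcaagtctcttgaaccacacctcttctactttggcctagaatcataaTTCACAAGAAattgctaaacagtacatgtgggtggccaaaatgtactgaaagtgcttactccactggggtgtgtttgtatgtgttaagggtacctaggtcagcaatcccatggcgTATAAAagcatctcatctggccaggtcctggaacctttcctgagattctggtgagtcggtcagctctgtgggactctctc
Chil4: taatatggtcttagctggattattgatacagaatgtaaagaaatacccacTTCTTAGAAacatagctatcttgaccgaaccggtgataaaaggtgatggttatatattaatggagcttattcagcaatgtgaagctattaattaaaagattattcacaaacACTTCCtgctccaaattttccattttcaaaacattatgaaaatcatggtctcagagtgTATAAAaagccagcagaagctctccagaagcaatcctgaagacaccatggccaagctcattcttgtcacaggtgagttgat

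The search covered GGNNNTTCC for NF-kB, TTCNNNGAA for GAS (the interferon-gamma activated sequence), TTCNNNNGAA for STAT6, GGAAGT as the core of PU.1, GAAANNGAAA as the core of ISRE, TGANTCA for AP-1, TTNCGNAA for C/EBP and TATAAA for the TATA box. The Acod1 promoter held the NF-kB letters with the first base at -85 from the annotated start, the PU.1 core at -125 and the TATA box at -28. The Chil3 promoter held the NF-kB letters on the other strand at -230, the GAS letters at -172 and the PU.1 core on the other strand at -60 and -46. The Retnla promoter held the STAT6 letters at -145, the PU.1 core on the other strand at -198 and the TATA box at -30. Of 32851 promoters of the same length, 18.5% held the NF-kB letters, 8.30% the GAS letters, 6.95% the STAT6 letters, 23.8% the PU.1 core and 13.6% the TATA box. The ISRE core, AP-1 and C/EBP letters, held by 3.44%, 7.81% and 2.47% of promoters, had no match in these windows. The Chil3 and Chil4 stretches matched at 251 of 270 aligned bases (93.0%), and of the PU.1 cores that Chil3 held at -60 and -46 only the first had a counterpart in Chil4. The TATA box lay at -31 in Chil4 and at -3 in Chil3, since the annotated start of Chil3 lies farther upstream in the shared sequence. A match is a description of letters and not a shown binding site.

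Libraries held 7.13 to 8.74 M reads in beta-glucan, 6.33 to 21.2 M in anti-CD40, 12.2 to 18.8 M in combination and 7.38 to 9.34 M in untreated tumours. Every combination library was thus deeper than every beta-glucan and untreated library, which matters most for genes with few reads. The test covered the 14278 genes that reached a normalized count of 10 in 5 or more tumours. Of the 7 genes, 6 passed that filter and Arg2 did not. A normalized count is the read count divided by a size factor of the tumour, and a fold change below is the difference of group means of log2(normalized count + 1), given with its standard error. The p-values come from limma and are adjusted by the Benjamini-Hochberg method over all 14278 genes. Transcripts of pancreatic acinar cells took a median of 2.40% of reads in beta-glucan, 27.0% in anti-CD40, 25.6% in combination and 2.74% in untreated tumours. They exceeded 30% in anti-CD40 tumours 2 and 6 and combination tumours 4 and 5. Macrophage markers were present in every tumour, and their sum over 14 genes had a lowest, median and highest value of 60220.4, 82294 and 107989 in beta-glucan, 95539, 108458 and 221065 in anti-CD40, 126313, 186939 and 248191 in combination and 32301, 38885 and 128841 in untreated tumours. Of these 14 markers, 5 rose with beta-glucan, 13 with anti-CD40 and 14 with the combination.

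Arg1 rose in beta-glucan and combination tumours and showed no detectable rise in anti-CD40 tumours. The gene lies at chr10:24915221-24927484 on the minus strand (GRCm38, mm10) and no other annotated gene overlaps it. Its normalized count had a lowest, median and highest value of 4981, 5726 and 7522 in the 6 beta-glucan tumours. The same values were 856, 2144 and 4796 in the 6 anti-CD40 tumours. It was 12806, 9124, 11480.2, 5532 and 5343 in combination tumours 1 to 5, against 1734, 1185, 2544, 1399.9 and 3050.3 in untreated tumours 1, 2, 3, 5 and 6. Every beta-glucan tumour and every combination tumour lay above every untreated tumour, and every anti-CD40 tumour lay below every beta-glucan and combination tumour. Anti-CD40 and untreated tumours covered overlapping ranges.

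The fold change of Arg1 against untreated tumours was 1.71 ± 0.33 with beta-glucan (3.26-fold, adjusted p = 0.00232) and 2.16 ± 0.35 with the combination (4.46-fold, adjusted p = 4.35e-05). With anti-CD40 it was 0.21 ± 0.33, with a 95% interval from -0.48 to 0.90 (adjusted p = 0.719). Between treatments, Arg1 was 3.86-fold higher in combination than in anti-CD40 tumours (log2 1.95 ± 0.33, adjusted p = 0.00688). It fell by 1.495 on the log2 scale in anti-CD40 relative to beta-glucan tumours (2.82-fold lower, adjusted p = 0.0115). Combination and beta-glucan tumours differed by 0.45 ± 0.33, which did not pass the test (adjusted p = 0.397). With every tumour scaled to the same total, which lets acinar reads enter the scale, the beta-glucan difference kept its size at 1.75 but not its call (adjusted p = 0.0985). Under that scale the differences of combination from anti-CD40 tumours (2.08, adjusted p = 0.242) and of anti-CD40 from beta-glucan tumours (-2.13, adjusted p = 0.0662) grew, and their calls were lost too.

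Hepatocytes are another source of Arg1, so genes of the hepatic urea cycle and secreted liver proteins were read beside it (Cps1, Otc, Nags, Slc25a15, Alb, Apoa1, Ttr and Fgb). Their summed level had a median of 3960 in beta-glucan, 2241 in anti-CD40, 1889.9 in combination and 1572 in untreated tumours, with a highest value of 22084 in an untreated tumour. Of the 7 that were tested, 0 passed limma's test in either direction with beta-glucan or with anti-CD40. With the combination only Slc25a15, a mitochondrial ornithine carrier, passed, and it fell by 1.04 (adjusted p = 0.0119).

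Arg2, the mitochondrial arginase found in many tissues, was close to the limit of detection. It is annotated at chr12:79130777-79156301 on the plus strand, and its exons overlap those of Vti1b and of the antisense gene Gm48780, from which reads cannot be separated without knowledge of strand. Beta-glucan tumours held 11 reads, 8 of them in tumour 4 and 3 in tumour 5. Anti-CD40 tumours held 2 reads, both in tumour 2, combination tumours 5, all in tumour 1, and untreated tumours 0. The count of 0 in 43.2 M untreated reads allows up to 0.0694 reads per M, for counting error only. How reads in the overlap were counted is not given, and this limit does not cover reads lost there. No difference in Arg2 was detectable at this depth.

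Other genes of arginine transport and use were read beside the share of all tested genes that passed. Of all tested genes, 6.42% were called with beta-glucan (5.09% higher, 1.32% lower), 18.6% with anti-CD40 (11.0% higher, 7.56% lower) and 34.0% with the combination (18.2% higher, 15.8% lower). A list of 18 tested genes for arginine transport and arginine-derived metabolites had 1 higher and 1 lower with beta-glucan, 2 higher and 1 lower with anti-CD40, and 3 higher and 3 lower with the combination, shares near that background. Slc7a2, an inducible arginine transporter of macrophages, rose by 1.37 ± 0.36 with beta-glucan (adjusted p = 0.0225) and by 1.91 ± 0.38 with the combination (adjusted p = 0.000394), and stood at 0.56 ± 0.36 with anti-CD40 (adjusted p = 0.312). Its lowest, median and highest normalized counts were 649.7, 905 and 1739 in beta-glucan, 279, 555 and 1098 in anti-CD40, 531, 1552 and 2254 in combination and 272, 329 and 487 in untreated tumours. Slc7a2 thus shared with Arg1 the groups in which it passed the test against untreated tumours. Between treatments Slc7a2 did not pass where Arg1 did. Combination against anti-CD40 stood at 1.36 ± 0.36 (adjusted p = 0.0572) and anti-CD40 against beta-glucan at -0.82 ± 0.34 (adjusted p = 0.266). Odc1, which turns ornithine into putrescine, was at -0.80 ± 0.33 with beta-glucan (adjusted p = 0.179) and -0.79 ± 0.35 with the combination (adjusted p = 0.0847) and did not pass. Sms, spermine synthase, fell by 1.12 with the combination (adjusted p = 0.00103) and by 0.81 with anti-CD40 (adjusted p = 0.0165). Paox, which breaks down acetylated polyamines, fell by 0.82 with beta-glucan (adjusted p = 0.0215) and by 0.83 with the combination (adjusted p = 0.00564). With equal totals Slc7a2 stood at 1.42 with beta-glucan (adjusted p = 0.237) and 1.46 with the combination (adjusted p = 0.0617), both calls being lost, and the split of the list with the combination became 1 higher and 4 lower.

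**Figure D1:**
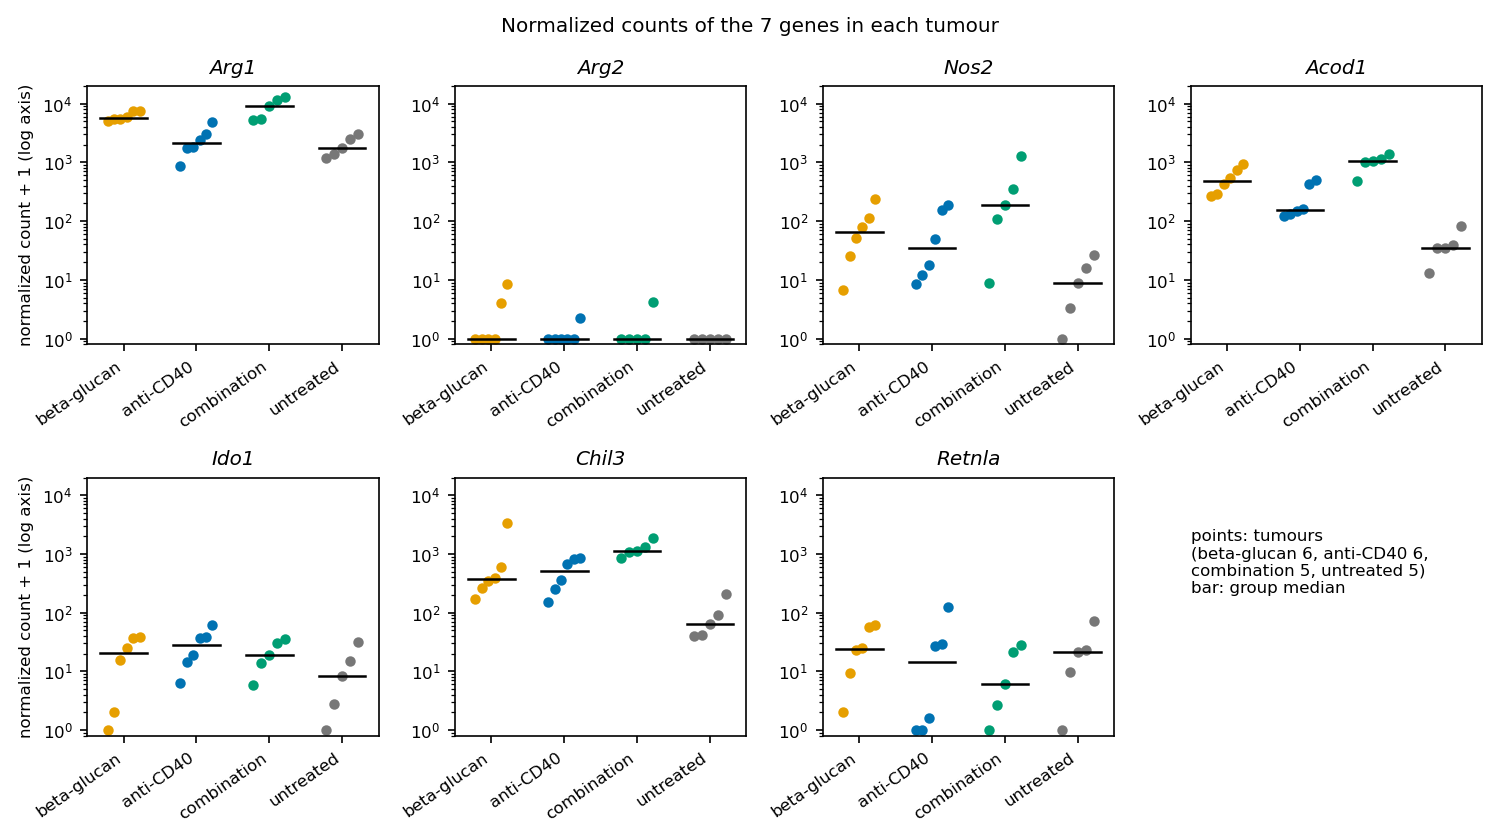
Normalized count + 1 (log axis) of Arg1, Arg2, Nos2, Acod1, Ido1, Chil3 and Retnla in each of the 22 tumours; points are tumours, sorted by value within a group, and bars are group medians. Arg1 separates beta-glucan and combination tumours from the others, Acod1 lies above untreated tumours in all 3 treated groups, and Arg2 lies at or near 0 throughout.

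Nos2, the other enzyme that consumes arginine, rose only where both agents were given, by limma's test, and varied widely between tumours of the same group. It is annotated at chr11:78920787-78960254 on the plus strand. Its normalized count had a lowest, median and highest value of 5.75, 64.2 and 237 in beta-glucan tumours and of 7.62, 33.2 and 188 in anti-CD40 tumours. Combination tumours 1 to 5 held 188, 1295, 108, 7.97 and 352, against 15.0, 25.03, 7.90, 2.29 and 0 in untreated tumours 1, 2, 3, 5 and 6. Combination tumour 4 lay within the untreated range and combination tumour 2 far above all others, so the groups overlapped in every comparison.

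The fold change of Nos2 was 4.55 ± 1.21 with the combination (23.4-fold, adjusted p = 0.0056). It was 2.98 ± 1.16 with beta-glucan (adjusted p = 0.145) and 2.51 ± 1.16 with anti-CD40 (adjusted p = 0.14), with 95% intervals from 0.58 to 5.38 and from 0.11 to 4.91. No direct comparison between the treated groups passed: combination against beta-glucan stood at 1.57 ± 1.16 (adjusted p = 0.4) and combination against anti-CD40 at 2.04 ± 1.16 (adjusted p = 0.417). The combination was therefore not shown to differ from either agent alone. Without combination tumour 2 the difference from untreated tumours was 3.78 (adjusted p = 0.0196). DESeq2 on the recovered reads also called Nos2 higher in anti-CD40 tumours (adjusted p = 0.0398) and in beta-glucan tumours (adjusted p = 0.0463). The same holds for anti-CD40 without the 4 tumours with over 30% acinar reads, at 3.45 (adjusted p = 0.0355).

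Genes that supply the Nos2 reaction or recycle its product were read next. Of 10 tested genes of nitric oxide synthesis and citrulline recycling, 0 passed limma's test with beta-glucan or anti-CD40, and with the combination 1 rose and 3 fell, beside 18.2% higher and 15.8% lower among all tested genes. Gch1, the rate-limiting enzyme for the cofactor tetrahydrobiopterin, had a lowest, median and highest normalized count of 467, 559.6 and 708 in beta-glucan, 285, 505 and 897 in anti-CD40, 186, 374 and 403 in combination and 288, 707 and 938 in untreated tumours. It fell by 1.01 with the combination (adjusted p = 0.0133). Spr, the last enzyme of that cofactor's synthesis, fell by 1.09 (adjusted p = 0.00432), and Gchfr, a feedback regulator of Gch1, fell by 2.30 (adjusted p = 0.0362). Ddah1, which clears methylated arginines that inhibit nitric oxide synthases, rose by 0.88 with the combination (adjusted p = 0.0425), and stood at 0.43 with equal totals (adjusted p = 0.521). Ass1, which recycles citrulline towards arginine, held 23 reads in beta-glucan, 0 in anti-CD40, 1 in combination and 0 in untreated tumours. Nos3, the endothelial synthase, held 1, 0, 13 and 1 reads in the same order. Nos1, another nitric oxide synthase, held 43, 44, 60 and 52 reads in that order and passed limma's test in no comparison. Epithelial markers fell in 9 of 9 with the combination, and their part in the lower cofactor genes was not tested.

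Acod1 rose in all 3 treated groups. It is annotated at chr14:103046977-103056573 on the plus strand, with the promoter printed above. Its normalized count had a lowest, median and highest value of 271, 483 and 929 in beta-glucan tumours and of 123, 155 and 500.2 in anti-CD40 tumours. Combination tumours 1 to 5 held 1385, 1049, 1143, 490.1 and 998, against 34.1, 12.1, 37.7, 33.2 and 80.1 in untreated tumours 1, 2, 3, 5 and 6. No treated tumour of any group fell into the untreated range. Anti-CD40 tumours 1 and 5 stood above the other 4 of their group, and combination tumour 4 lay within the beta-glucan and anti-CD40 ranges.

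The fold change of Acod1 was 3.79 ± 0.44 with beta-glucan (13.9-fold, adjusted p = 1.48e-05), 2.60 ± 0.44 in anti-CD40 tumours (6.07-fold, adjusted p = 0.000204) and 4.80 ± 0.46 in combination tumours (27.8-fold, adjusted p = 7.51e-08). It was 4.57-fold higher in combination than in anti-CD40 tumours (log2 2.19 ± 0.44, adjusted p = 0.0185). Combination against beta-glucan stood at 1.001 ± 0.44 (adjusted p = 0.132) and anti-CD40 against beta-glucan at -1.19 ± 0.42 (adjusted p = 0.167), and neither passed. The call of combination against anti-CD40 was lost without anti-CD40 tumour 2 (adjusted p = 0.0629), 3 (0.0588) or 4 (0.0506), without combination tumour 1 (0.0555) and without the 4 tumours rich in acinar reads (0.145), with values between 2.04 and 2.22. With equal totals the value was 2.32 and the call was lost (adjusted p = 0.235), whereas the 3 calls against untreated tumours were kept under that scale.

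Genes around itaconate gave few calls. Of 23 tested genes of the tricarboxylic acid cycle, its mitochondrial carriers and the Nrf2 response, which itaconate is known to engage, 1 rose and 0 fell with beta-glucan, 1 rose and 2 fell with anti-CD40, and 3 rose and 2 fell with the combination, beside the 6.42%, 18.6% and 34.0% of all tested genes called in these comparisons. Hmox1, the haem oxygenase that Nrf2 induces, rose by 0.92 ± 0.27 with beta-glucan (adjusted p = 0.043) and by 1.38 ± 0.29 with the combination (adjusted p = 0.000628). Hmox1 was also higher in combination than in anti-CD40 tumours (1.43 ± 0.27, adjusted p = 0.0147) and lower in anti-CD40 than in beta-glucan tumours (-0.97 ± 0.26, adjusted p = 0.0492). Nfkbiz, the gene of an inflammatory regulator, fell by 0.77 in anti-CD40 tumours (adjusted p = 0.0371) and by 1.03 in combination tumours (adjusted p = 0.00441). Epithelial markers fell in 7 and 9 of 9 in these comparisons. Neither their part nor that of itaconate in the lower Nfkbiz was tested. Nfe2l2, the gene of Nrf2, fell by 0.56 with anti-CD40 (adjusted p = 0.0343). Sdha, a subunit of succinate dehydrogenase, the enzyme that itaconate inhibits, rose by 0.41 ± 0.13 with anti-CD40 (adjusted p = 0.0273) and by 0.34 ± 0.13 in combination tumours (adjusted p = 0.0489). Slc25a11, the mitochondrial oxoglutarate carrier, rose by 0.52 ± 0.19 with the combination (adjusted p = 0.0419), and Slc25a1, the citrate carrier, fell by 0.93 (adjusted p = 0.0173). With equal totals 0 genes of the list passed as higher in any of the 3 comparisons, by limma, and Hmox1 stood at 0.97 with beta-glucan (adjusted p = 0.379) and 0.92 with the combination (adjusted p = 0.145).

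Ido1 showed no change that passed the test in any comparison. It is annotated at chr8:24584136-24597009 on the minus strand. Its normalized count had a lowest, median and highest value of 0, 19.3 and 36.8 in beta-glucan and of 5.43, 26.9 and 60.4 in anti-CD40 tumours. Combination tumours 1 to 5 held 12.9, 18.3, 29.2, 34.5 and 4.85, against 7.49, 0, 1.75, 13.7 and 30.1 in untreated tumours 1, 2, 3, 5 and 6. All 4 groups overlapped. The fold change was 0.67 ± 0.97 with beta-glucan (adjusted p = 0.772), 1.85 ± 0.97 in anti-CD40 tumours (adjusted p = 0.195) and 1.46 ± 1.01 in combination tumours (adjusted p = 0.283). The 95% interval with anti-CD40 ran from -0.14 to 3.84, so neither no change nor a rise of several-fold was excluded.

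Other genes of tryptophan breakdown and of the aryl hydrocarbon receptor, which binds kynurenine, were read beside Ido1. Of 15 tested genes of the list, 1 rose and 0 fell with beta-glucan, and 4 rose and 1 fell both with anti-CD40 and with the combination. Among all tested genes 5.09% rose and 1.32% fell with beta-glucan, 11.0% and 7.56% with anti-CD40, and 18.2% and 15.8% with the combination. The median fold change of the list was 0.31 with beta-glucan, 1.26 with anti-CD40 and 0.52 with the combination. Kynu, kynureninase, had a lowest, median and highest normalized count of 3.31, 9.46 and 37.7 in beta-glucan, 13.3, 36.0 and 79.4 in anti-CD40, 3.98, 28.9 and 48.7 in combination and 0, 5.82 and 10.4 in untreated tumours. It rose by 2.77 ± 0.69 in anti-CD40 tumours (adjusted p = 0.00662) and by 2.09 ± 0.73 in combination tumours (adjusted p = 0.0283). Kmo, kynurenine monooxygenase, rose by 2.22 ± 0.68 with the combination (adjusted p = 0.0142). Cyp1b1, a target of the aryl hydrocarbon receptor, rose in each treated group, by 2.05 ± 0.34 with beta-glucan (adjusted p = 0.000466), 2.12 ± 0.34 in anti-CD40 tumours (adjusted p = 0.000101) and 3.02 ± 0.35 in combination tumours (adjusted p = 9.75e-07). The receptor gene Ahr fell by 0.89 with the combination (adjusted p = 0.0012), and Tiparp, another of its targets, fell by 1.02 with anti-CD40 (adjusted p = 0.00721). The other enzymes that open the pathway, Ido2 and Tdo2, passed in no comparison. Cyp1b1 is also expressed by fibroblasts, whose markers rose in 5 of 7 with beta-glucan, 3 of 7 with anti-CD40 and 7 of 7 with the combination, and their part was not tested.

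**Figure D2:**
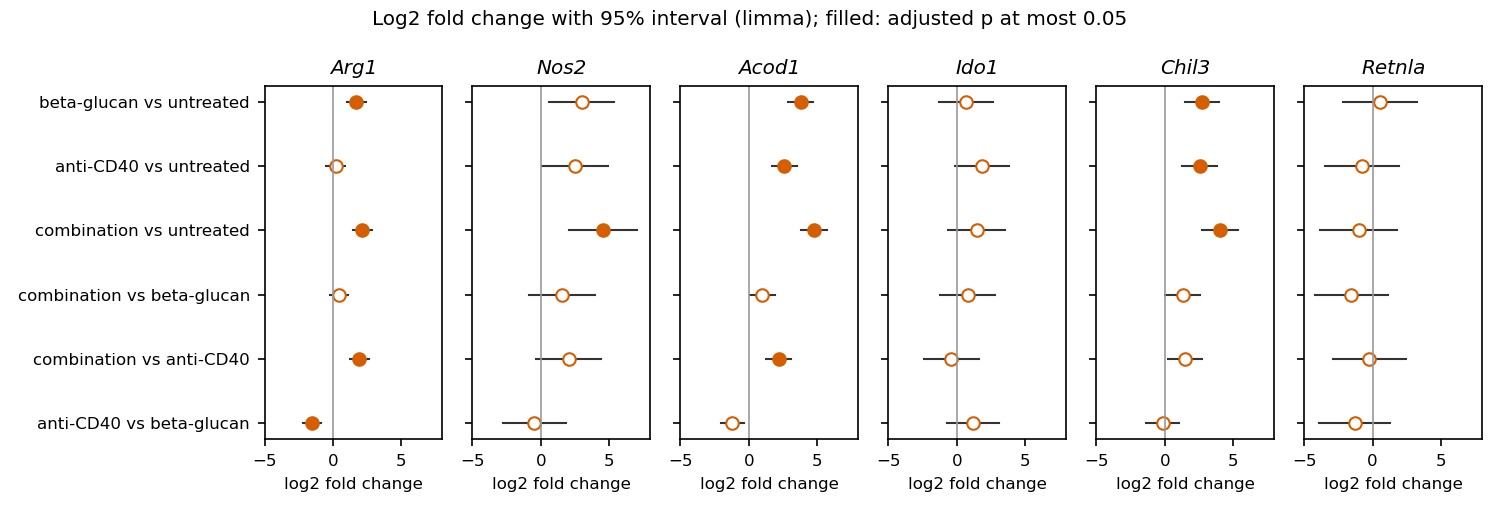
Log2 fold change (horizontal axis) of 6 of the genes in 6 comparisons, with 95% intervals from limma; filled points passed at an adjusted p of at most 0.05. Acod1 and Chil3 lie right of 0 for every treatment against untreated tumours, Arg1 only where beta-glucan was given, and the intervals of Ido1 and Retnla span 0 in each row.

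Chil3, also known as Ym1, a secreted chitinase-like protein that lacks chitinase activity, rose in all 3 treated groups. It is annotated at chr3:106147554-106167564 on the minus strand. Its normalized count had a lowest, median and highest value of 168, 366 and 3314 in beta-glucan tumours and of 151, 509.8 and 838 in anti-CD40 tumours. Combination tumours 1 to 5 held 1296, 1860.1, 1060.5, 1119.8 and 860.3, against 39.9, 208, 88.6, 38.9 and 62.6 in untreated tumours 1, 2, 3, 5 and 6. The combination was separate from untreated and from anti-CD40 tumours, whereas untreated tumour 2 lay inside the beta-glucan and anti-CD40 ranges. Beta-glucan tumour 4 exceeded every other tumour of the study.

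The fold change of Chil3 was 2.73 ± 0.61 with beta-glucan (6.63-fold, adjusted p = 0.0088), 2.57 ± 0.61 in anti-CD40 tumours (5.94-fold, adjusted p = 0.00539) and 4.06 ± 0.64 in combination tumours (16.6-fold, adjusted p = 5.25e-05). Without beta-glucan tumour 4 the beta-glucan value was 2.17 (adjusted p = 0.00686). Combination against anti-CD40 stood at 1.48 ± 0.61 (adjusted p = 0.226) and did not pass, although the groups did not overlap. Combination against beta-glucan stood at 1.33 ± 0.61 (adjusted p = 0.157) and passed only without beta-glucan tumour 4, at 1.88 (adjusted p = 0.0146). With equal totals the value with anti-CD40 was 1.995 and its call was lost (adjusted p = 0.0538).

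Near-identical copies limit the reading of Chil3. Of the 50-base words in the last 400 bases of its transcripts, from which 3' reads come, 40 of 462 (8.66%) also occur in Chil4 or Gm6522, and for Arg1, Nos2, Acod1, Ido1 and Retnla 0 of the words occur in another gene. Chil4, annotated at chr3:106201490-106219507 on the minus strand with the promoter printed above, ran the other way from Chil3 in its reads. It held 2 reads in beta-glucan, 10 in anti-CD40, 0 in combination and 84 in untreated tumours, of which 66 came from untreated tumour 6, and it was too low to be tested. Chil1, a chitinase-like protein of macrophages and epithelium, rose by 2.68 ± 0.81 with beta-glucan (adjusted p = 0.0463) and by 2.40 ± 0.84 with the combination (adjusted p = 0.0296), and stood at -0.02 ± 0.81 with anti-CD40 (adjusted p = 0.992). With equal totals Chil1 stood at 2.76 with beta-glucan (adjusted p = 0.0877) and 1.996 with the combination (adjusted p = 0.0855), and both calls were lost.

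Retnla, which encodes RELM-alpha, the other secreted product of alternative activation followed here, showed no change that passed. It is annotated at chr16:48842551-48844461 on the plus strand. Its normalized count had a lowest, median and highest value of 1.06, 22.9 and 61.6 in beta-glucan and of 0, 13.5 and 125 in anti-CD40 tumours. Combination tumours 1 to 5 held 5.14, 27.4, 1.67, 0 and 20.4, against 0, 8.63, 21.9, 20.6 and 71.4 in untreated tumours 1, 2, 3, 5 and 6. All groups overlapped, and 1 tumour set the top of the anti-CD40 range. The fold change was 0.53 ± 1.31 with beta-glucan (adjusted p = 0.88), -0.79 ± 1.31 in anti-CD40 tumours (adjusted p = 0.731) and -1.02 ± 1.36 in combination tumours (adjusted p = 0.604). Retnlg, a resistin-like gene of mouse neutrophils, did not pass either, at 3.07 ± 1.19 with the combination (adjusted p = 0.0522).

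Other markers of alternative activation were mixed. Of 14 tested, 1 rose with beta-glucan, 3 with anti-CD40 and 4 with the combination, and 0 fell by limma's test. Among all tested genes 5.09%, 11.0% and 18.2% rose in these comparisons. Clec10a, a C-type lectin of macrophages and dendritic cells, rose in each group, by 1.18 ± 0.36 with beta-glucan (adjusted p = 0.0482), 2.62 ± 0.36 in anti-CD40 tumours (adjusted p = 1.62e-05) and 2.55 ± 0.37 in combination tumours (adjusted p = 1.29e-05). Pdcd1lg2, the gene of the checkpoint ligand PD-L2, rose by 2.28 ± 0.39 in anti-CD40 tumours (adjusted p = 0.000193) and by 2.02 ± 0.40 in combination tumours (adjusted p = 0.000427). Mrc1, the mannose receptor, rose with the combination (0.96 ± 0.29, adjusted p = 0.0128). With equal totals 0 rose with beta-glucan, 2 with anti-CD40 and 3 with the combination, and 1 fell with the combination.

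Read by group, 3 of the 6 tested genes rose with beta-glucan (Arg1, Acod1 and Chil3), beside 5.09% of all tested genes. With anti-CD40 2 rose (Acod1 and Chil3), beside 11.0%, and with the combination 4 rose (Arg1, Nos2, Acod1 and Chil3), beside 18.2%. The median fold change of the 6 genes was 2.22 with beta-glucan, 2.18 with anti-CD40 and 3.11 with the combination, against medians of 0.02, 0.00 and -0.01 over all tested genes. These comparisons share the untreated tumours. Tumours did not overlap with untreated ones for 2 genes with beta-glucan (3.98% of all genes lay wholly above), 1 with anti-CD40 (5.03%) and 3 with the combination (11.7%).

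Between treatments, 2 of the 6 genes (Arg1 and Acod1) were higher in combination than in anti-CD40 tumours, beside 0.658% of all genes, and Arg1 and Chil3 were wholly above (0.777%). Arg1 was lower in anti-CD40 than in beta-glucan tumours, beside 0.49% of all genes, and was the 1 gene of the 6 that lay wholly below (0.686%). Combination against beta-glucan called 0 of the 6 by limma, edgeR or DESeq2, beside 14.1% of all genes in either direction, and 2 of them (Acod1 and Chil3) had an unadjusted p under 0.05. With only 6 genes, a count of 0 beside 14.1% does not set them apart from all genes. For Acod1, 4 of the 5 combination tumours lay above every beta-glucan tumour. Its call against anti-CD40 tumours was lost in 9 of 37 refits. The interaction, in which the single-agent effects are subtracted from the effect of the combination, called 0 of the 6 by any of these tools, beside 0.021% of all genes. Its value for Acod1 was -1.60 ± 0.62 (adjusted p = 0.44), the 1 gene with an unadjusted p under 0.05, and for Arg1 0.24 ± 0.47 (adjusted p = 0.93).

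The level of macrophage markers also differed between the groups. At the median it was lower in beta-glucan than in anti-CD40 tumours (82294 against 108458). Arg1 (5726 against 2144) and Acod1 (483 against 155) were higher there. Per 1000 units of the summed markers, Arg1 had a lowest, median and highest value of 56.6, 70.2 and 125 in beta-glucan, 7.85, 20.2 and 31.4 in anti-CD40, 22.3, 54.8 and 72.2 in combination and 23.7, 31.6 and 78.7 in untreated tumours. Beta-glucan and anti-CD40 tumours stayed separate on this measure, and untreated tumours overlapped with all 3 treated groups. Acod1 per 1000 units was 2.51, 6.16 and 12.1 in beta-glucan, 1.14, 1.52 and 4.37 in anti-CD40, 1.97, 5.93 and 8.30 in combination and 0.311, 0.750 and 1.17 in untreated tumours. Only anti-CD40 tumours met the untreated range on this measure.

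With the mean level of the macrophage markers as a covariate, 2 of the 12 calls were kept. Acod1 stood at 2.69 with beta-glucan against untreated tumours (adjusted p = 0.011), and Arg1 at -1.89 in anti-CD40 against beta-glucan tumours (adjusted p = 0.00395). Acod1 then also passed as lower in anti-CD40 than in beta-glucan tumours, at -1.83 (adjusted p = 0.0184). Of the calls that were lost, Chil3 stood at 2.54 with beta-glucan, 2.27 with anti-CD40 and 3.63 with the combination, and Nos2 at 6.70 with the combination, values near or above those without the covariate. Arg1 stood at 1.01 with beta-glucan and 0.61 with the combination, Acod1 at 0.87 with anti-CD40 and 2.32 with the combination, and against anti-CD40 tumours the combination stood at 1.49 for Arg1 and 1.46 for Acod1. The covariate follows the treatments closely, and with it the share of all genes called fell to 1.59% with beta-glucan, 3.37% with anti-CD40 and 0.126% with the combination, so calls were lost across the table and not among these genes alone. Neutrophil markers moved as well: their sum over 13 genes was 12335 to 19500.0 in beta-glucan, 1971 to 25330.1 in anti-CD40, 27017 to 39286 in combination and 2105 to 5261 in untreated tumours, where the defining neutrophil gene Ly6g was at 0. Per 1000 units of that sum, Arg1 had a lowest, median and highest value of 283, 366 and 478 in beta-glucan, 69.4, 277 and 1231 in anti-CD40, 182, 301 and 355 in combination and 483, 563 and 988 in untreated tumours. On this measure every beta-glucan and combination tumour lay below every untreated tumour for Arg1, the reverse of its order in normalized counts. The neutrophil sums of both groups lay wholly above the untreated sums, so any gene that rose less than the sum is lowered on this measure. How many of all genes show the same reversal was not counted, so it is not a result particular to Arg1. Acod1 per 1000 units was 14.9, 34.1 and 47.6 in beta-glucan, 4.85, 37.5 and 67.7 in anti-CD40, 16.1, 35.2 and 36.9 in combination and 5.74, 12.3 and 26.0 in untreated tumours. Chil3 per 1000 units was 13.6, 19.0 and 195 in beta-glucan, 33.1, 49.4 and 76.4 in anti-CD40, 31.8, 33.0 and 61.3 in combination and 14.4, 16.8 and 98.8 in untreated tumours. Treated and untreated tumours overlapped for Acod1 and Chil3 on this measure, and no fit with the neutrophil level was made.

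**Figure D3:**
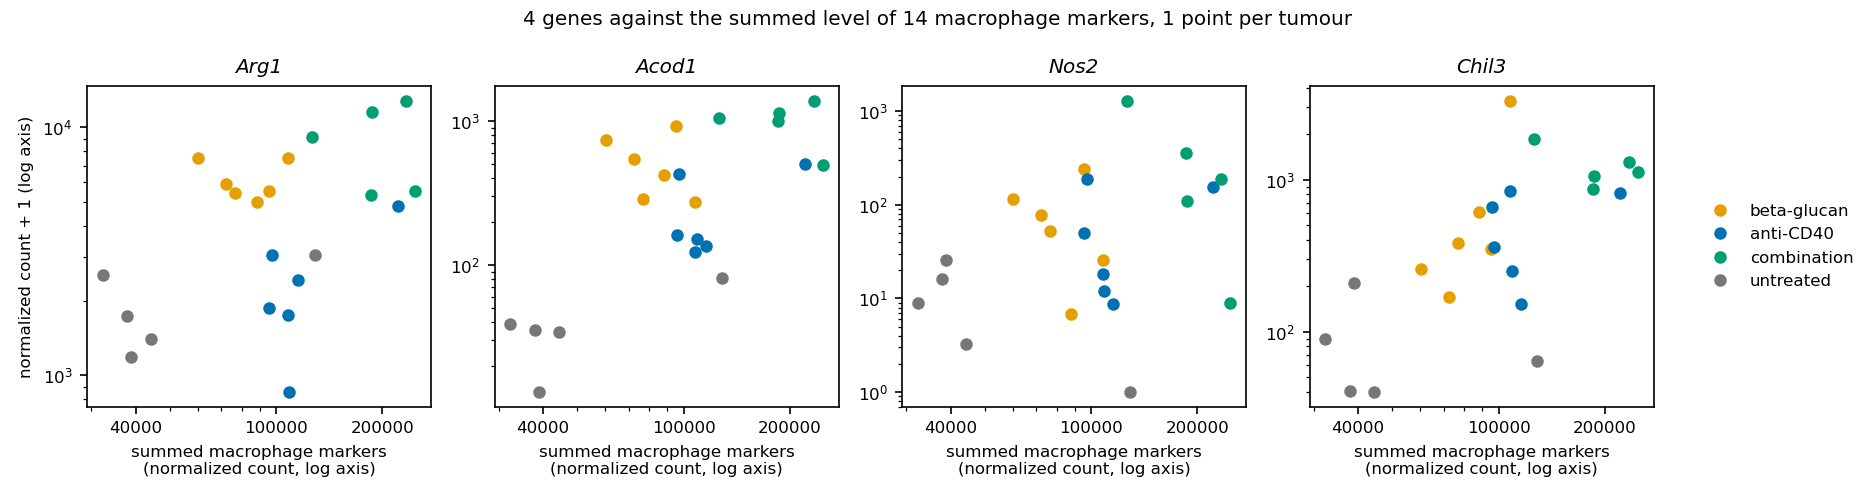
Normalized count + 1 (log axis) of Arg1, Acod1, Nos2 and Chil3 against the summed normalized count of 14 macrophage markers (log axis), 1 point per tumour. Beta-glucan tumours lie above anti-CD40 tumours for Arg1 although their marker sums are lower (82294 against 108458 at the median), and 1 untreated tumour reaches a marker sum of 128841.

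Of 14 tested inducers of the classical programme, 7 rose with beta-glucan, 6 with anti-CD40 and 10 with the combination, beside 5.09%, 11.0% and 18.2% of all tested genes, and 0 fell by limma's test. Ifng, the interferon that induces Nos2, Acod1 and Ido1, had a lowest, median and highest normalized count of 1.06, 3.89 and 17.2 in beta-glucan, 19.8, 59.6 and 138 in anti-CD40, 25.2, 77.4 and 87.3 in combination and 0, 4.16 and 12.6 in untreated tumours. Against untreated tumours it rose by 3.72 ± 0.71 in the anti-CD40 group (adjusted p = 0.00061) and by 3.84 ± 0.74 in the combination group (adjusted p = 0.000289), and stood at 0.17 ± 0.71 with beta-glucan (adjusted p = 0.936). With beta-glucan no rise of Ifng was detected on the day of sampling, at low counts and with an interval from -1.29 to 1.63. Whether Ifng had a part in the beta-glucan rise of Arg1, Acod1 and Chil3 was not tested. Il1b, an inflammatory cytokine, rose by 2.94 ± 0.38 with beta-glucan (adjusted p = 3.98e-05) and was lower in anti-CD40 than in beta-glucan tumours by 2.12 ± 0.37 (adjusted p = 0.00235), an order that Arg1 also showed. Tlr2, a receptor for microbial lipoproteins, rose in every treated group (2.45, 2.58 and 3.56 with beta-glucan, anti-CD40 and the combination). With equal totals the counts were 2, 6 and 8 of 14.

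Inducers of the alternative programme gave fewer calls than those of the classical one. Of 11 tested, 2 rose and 1 fell with beta-glucan, 0 rose and 2 fell with anti-CD40, and 5 rose and 1 fell with the combination. Among all tested genes 5.09%, 11.0% and 18.2% rose and 1.32%, 7.56% and 15.8% fell, in the same order. Il13, a cytokine that drives the programme, held 1 read in beta-glucan, 0 in anti-CD40, 5 in combination and 0 in untreated tumours. Il4, the gene of IL-4, has no values in these data. Cebpb, a transcription factor needed for Arg1 induction in mouse macrophages, rose by 0.94 ± 0.20 with beta-glucan (adjusted p = 0.00417) and by 1.15 ± 0.21 with the combination (adjusted p = 0.000139). Klf4, a factor that cooperates with STAT6, fell in each treated group, by 1.05 with beta-glucan (adjusted p = 0.00115), 1.53 in anti-CD40 tumours (adjusted p = 6.12e-06) and 1.14 in combination tumours (adjusted p = 9.96e-05). Epithelial markers fell in 2, 7 and 9 of 9 in these comparisons, and their part in the lower Klf4 was not tested. With equal totals Cebpb stood at 0.99 with beta-glucan (adjusted p = 0.205) and 0.69 with the combination (adjusted p = 0.18) and Klf4 at -1.004 with beta-glucan (adjusted p = 0.149), these calls being lost, and the list had 0 higher and 2 lower with the combination.

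**Figure D4:**
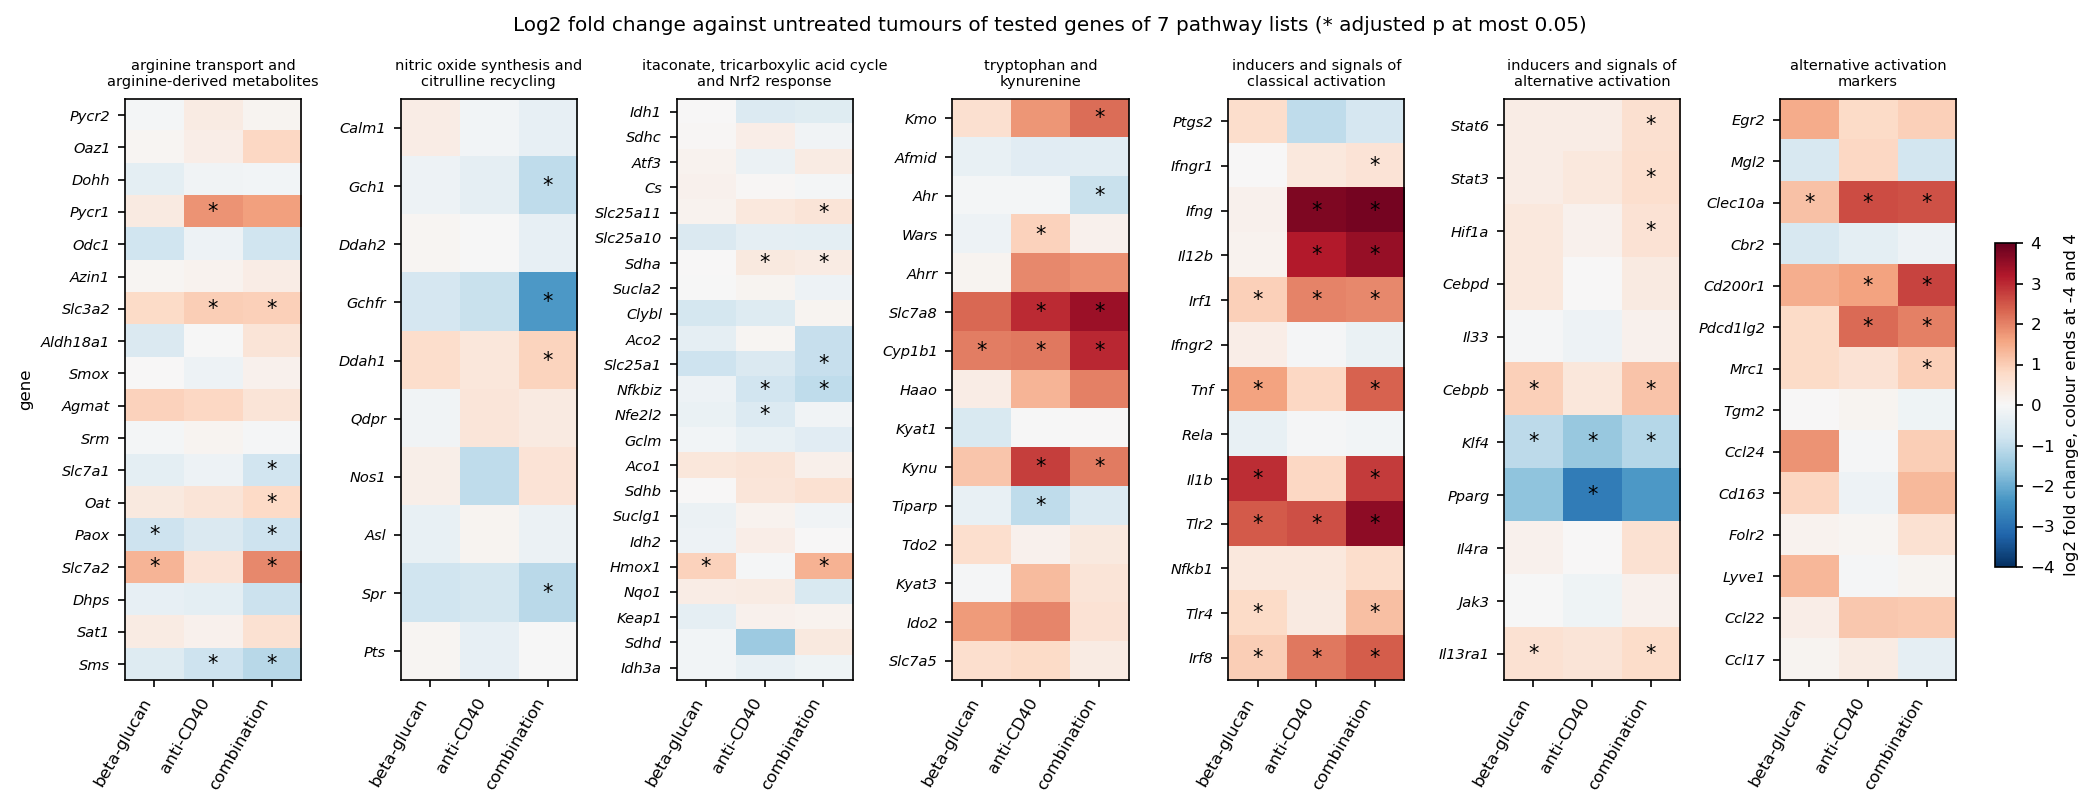
Log2 fold change against untreated tumours (colour, ends at -4 and 4) of the tested genes of 7 lists in beta-glucan, anti-CD40 and combination tumours; an asterisk marks an adjusted p of at most 0.05. The list of classical inducers holds 7, 6 and 10 higher genes of 14, of which 1 is not drawn, and the list of nitric oxide synthesis 0, 0 and 1 of 10.

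Genes whose level followed each of the 6 across tumours are given as a description, over 22 tumours with group means removed and 11978 genes ranked; the tumours share depth and composition. Arg1 was most like Chst11, a chondroitin sulfotransferase, Clec4n, the gene of dectin-2, a receptor for fungal mannans, and Ccl9, a myeloid chemokine, with Pearson r between 0.847 and 0.848. Nos2 was most like Cd300c2 (0.952), Sat1, a polyamine acetyltransferase (0.948), and Khdc4 (0.937), values that lean on tumours with few or very many Nos2 reads. Acod1 was most like Hk3, a myeloid hexokinase (0.879), Trim30a (0.842) and Clec4n (0.838). Among the genes most like Ido1 were Ly6c1 (0.804) and Tap1, the interferon-inducible peptide transporter (0.739). Chil3 was most like Ctsg, the neutrophil and monocyte protease cathepsin G (0.691), with Zfp942 (0.664) and Fbn2 (0.657) close behind. Retnla was most like Ehbp1 (0.772), B9d1 (0.734) and Abca8a (0.733).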

How the data were processed

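Libraries were made from 100 ng of RNA from serial sections 5 µm thick of fixed tumours with a QuantSeq forward kit, per the labels' protocols; such reads start at the 3' ends of polyadenylated transcripts and give no isoforms. Per the submitters' processing notes, STAR, mm10 and DESeq2 were used, with no versions. Which program counted reads, with which annotation and with or without strand, is not given in the sources used here. The deposited values are a signal: normalized counts, that is reads over a size factor per tumour, as the authors computed them. Of 395252 values 100% were whole reads within 0.001 after division by the tumour's smallest step, so reads were recovered; columns without a sample numbered 0.

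Values were fitted as log2(value + 1) with limma 3.58.1 in R 4.3.3 (trended, robust, two-sided) on the means of the 4 groups, with a Benjamini-Hochberg threshold of 0.05 within each contrast. The ± after a fold change is its standard error. EdgeR 4.0.16 and DESeq2 1.42.0 on the recovered reads, other pseudocounts, filters and scales, covariates, the replicate block and leaving out each tumour were alternatives. The fit was tested on simulated data. Coordinates come from GENCODE M21 on GRCm38 (mm10). Groups come from the labels. Whether tumours came from different mice is not stated there, and p-values then measure only the spread among the samples given.

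The genes, the lists and the tests were chosen with earlier results of these data known. Named are the 7 genes, a set of family and pathway partners whatever their values, up to 4 called genes of smallest p per list and comparison, and for each tested gene the 3 genes with the highest Pearson r among those with a mean of at least 30 in 1 or more groups. A gene that the rule would name is not reported here.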

Additional observations from a re-analysis of the deposited data

Results flagged for a closer look

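In groups of 4 to 10 tumours, a tumour was singled out when its gap to the nearest other tumour, relative to the range of its group, exceeded the 95% critical value of Dixon's test. This held for 3 of 24 groups of the 6 tested genes and for 2 groups of Arg2. The test used normalized counts without logarithms. Its rate of about 1 in 20 by chance holds for normally distributed values, which these counts need not be. The 3 groups are therefore not shown to exceed chance. Nos2 stood at 1295 in combination tumour 2, Chil3 at 3314 in beta-glucan tumour 4 and Retnla at 125 in anti-CD40 tumour 6, each far above the rest of its group. Arg2 stood at 1.271 in anti-CD40 tumour 2 and at 3.216 in combination tumour 1, the only tumours of those groups with any Arg2 read, which fixes the outcome of the test. The causes were not tested.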

How the results depend on the processing

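Of 444 refits of the 12 calls, 421 kept the call, 23 lost it and 0 turned the direction; 10 of the lost ones came with the macrophage level as covariate. With that covariate the number of the 6 genes called was 1 (beta-glucan against untreated), 0 (anti-CD40 against untreated), 0 (combination against untreated), 0 (combination against anti-CD40) and 2 (anti-CD40 against beta-glucan). With equal totals 1 was called for anti-CD40 against untreated and 0 for combination against anti-CD40 and for anti-CD40 against beta-glucan. For combination against anti-CD40, 1 was called with totals taken without acinar genes, 0 with only the groups compared, and 1 without the 4 tumours with over 30% acinar reads, a setting chosen after seeing the data. Leaving out 1 tumour gave 1 to 2 genes for combination against anti-CD40 and 0 to 1 for combination against beta-glucan, where 1 (Chil3) was reached without beta-glucan tumour 4. The cause was not tested.

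Equal totals moved the median of all genes by -0.56 for anti-CD40 against untreated, -0.45 for combination against untreated, -0.48 for combination against beta-glucan and -0.64 for anti-CD40 against beta-glucan. The share of calls that were higher became 93.4% rather than 79.4% for beta-glucan against untreated, 22.4% rather than 59.3% for anti-CD40 against untreated and 33.2% rather than 53.6% for combination against untreated.

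Values that changed sign had not passed the test in the first place. With the macrophage covariate Ido1 turned to -0.58 (beta-glucan against untreated), -0.13 (anti-CD40 against untreated), -1.36 (combination against untreated) and -0.78 (combination against beta-glucan), Arg1 to -0.88 (anti-CD40 against untreated) and -0.41 (combination against beta-glucan), Acod1 to -0.37 (combination against beta-glucan) and Nos2 to 0.0808 (anti-CD40 against beta-glucan). With equal totals Arg1 turned to -0.37 (anti-CD40 against untreated) and -0.0503 (combination against beta-glucan) and Retnla to 0.0251 (combination against anti-CD40). With the acinar level as covariate Retnla turned to -0.18 (beta-glucan against untreated), Nos2 to 0.27 and Chil3 to 0.0644 (anti-CD40 against beta-glucan). Retnla was 0.21 by edgeR and 0.28 by DESeq2 for anti-CD40 against untreated, and 0.0448 by DESeq2 for anti-CD40 against beta-glucan. Without the 4 acinar-rich tumours, Retnla was 0.54 (combination against anti-CD40) and 0.0158 (interaction), Nos2 0.47 and Chil3 0.41 (anti-CD40 against beta-glucan).

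Leaving out 1 tumour gave ranges that crossed 0 for Retnla (-0.39 to 1.16 for beta-glucan against untreated, -0.81 to 0.58 for combination against anti-CD40, -1.39 to 0.16 for the interaction), Arg1 (-0.0213 to 0.48 for anti-CD40 against untreated, -0.0225 to 0.47 for the interaction), Ido1 (-0.76 to 0.00325 for combination against anti-CD40), Chil3 (-0.46 to 0.40 for anti-CD40 against beta-glucan) and Nos2 (-1.71 to 0.0827 for the interaction).

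Same-numbered tumours of different groups did not visibly deviate together (8 of 30 pairs with r over 0.1, median 0.0283, against 40 of 151 other pairs, median 0.0030). This check cannot show whether same-numbered tumours shared a step of handling. Combination tumour 5, numbered so by its title, has the number 6 in the table; by table numbers the check gave the same counts. The replicate block called 4 genes rather than 3 with beta-glucan and 3 rather than 2 with anti-CD40, Nos2 being the added gene (adjusted p = 0.0429 and 0.0451), and turned Retnla to 0.26 for combination against anti-CD40; the other counts were equal. The replicate block by table numbers, added after seeing the data, did not call Nos2 with either agent and called 1 gene for combination against beta-glucan, Acod1 at 1.16 (adjusted p = 0.0333). Low counts limit Ido1, Retnla, Arg2 and, in untreated tumours, Nos2.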
